A study of Mus musculus with 6 samples.

Results

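Chemokines are small secreted proteins that steer the movement of leukocytes, and 10 of them that are known from inflammation were followed here in PA6 cells: CCL2, CCL7, CCL5, CCL20, CXCL1, CXCL5, CXCL10, CXCL14, CXCL16 and CX3CL1. All probes listed under these gene symbols in the table of unnormalised signals were taken, which gave 14 probes of 9 genes among 45281 probes of 30854 names on the array. No probe carried the name of CXCL5, which was not analysed here. The genes were chosen by their signals across the -GFs, FGF2 and BMP4 arrays, with results of these arrays known, so that their levels and fold changes under FGF2 and BMP4 are given as a description and without a p-value.

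PA6 is a mouse stromal cell line that supports blood progenitors and, in co-culture, the differentiation of embryonic stem cells. Confluent monolayers of this 1 line were kept for 3 h in serum-free medium, which all groups shared. The medium held no growth factor (-GFs), or recombinant FGF2 at 20 ng/ml, or recombinant BMP4 at 10 ng/ml by the labels. Each group had 2 biological replicates and each replicate was made of 1 well per condition, so that replicate 1 of the 3 groups and replicate 2 of the 3 groups are matched sets. The transcriptome was measured on 6 Illumina MouseWG-6 v2.0 BeadChip arrays to learn which genes the stroma switches on early.

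Chemokines are named by the spacing of their first cysteines. CC members such as CCL2, CCL7 and CCL5 mainly attract monocytes and T cells, CXCL1 and CXCL5 attract neutrophils through CXCR2, and CXCL10 attracts activated T cells through CXCR3. CXCL16 and CX3CL1 stand apart because they are made as transmembrane proteins that tether cells and are shed by the proteases ADAM10 and ADAM17. CXCL14 is expressed by many epithelia and stromal cells, and CCL20 binds CCR6 on dendritic and lymphoid cells. Many of these genes are classical targets of NF-kB, CXCL10 is also a classical interferon target, and CXCL12, which retains haematopoietic cells in the bone marrow, is the chemokine that marrow stroma makes without a stimulus.

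The reference held a promoter for 5 of the 10 genes, Ccl20, Cxcl1, Cxcl10, Cx3cl1 and Cxcl14 (RefSeq annotation of GRCm38.p6). The 250 bases before the start of transcription are shown for Cxcl14, which was higher with FGF2, for Cxcl1, which was detected in each group without such a difference, and for Cxcl10, which was hardly detected. Capitals mark the letters that match a searched motif.
Cxcl14, chr13:56296552-56296801, - strand: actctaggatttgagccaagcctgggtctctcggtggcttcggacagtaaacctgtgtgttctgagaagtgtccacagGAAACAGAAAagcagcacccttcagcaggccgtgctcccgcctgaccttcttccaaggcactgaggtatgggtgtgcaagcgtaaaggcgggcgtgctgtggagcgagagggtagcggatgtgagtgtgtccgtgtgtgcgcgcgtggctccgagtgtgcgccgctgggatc
Cxcl1, chr5:90890995-90891244, + strand: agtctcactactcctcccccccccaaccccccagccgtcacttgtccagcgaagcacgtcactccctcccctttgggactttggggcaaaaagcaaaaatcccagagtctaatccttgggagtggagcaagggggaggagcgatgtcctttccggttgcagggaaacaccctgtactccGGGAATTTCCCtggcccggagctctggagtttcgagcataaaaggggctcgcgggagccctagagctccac
Cxcl10, chr5:92348890-92349139, - strand: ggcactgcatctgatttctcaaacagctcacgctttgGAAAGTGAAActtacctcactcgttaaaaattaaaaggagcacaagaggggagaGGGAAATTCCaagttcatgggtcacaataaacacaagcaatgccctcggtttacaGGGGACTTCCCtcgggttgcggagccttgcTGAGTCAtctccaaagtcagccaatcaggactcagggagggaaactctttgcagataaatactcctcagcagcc

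The motifs searched on both strands were those of NF-kB, AP-1 (TGANTCA), CRE (TGACGTCA), EGR (GCGNGGGCG), the interferon-stimulated response element (ISRE) and the TATA box (TATAAA). In Cxcl1 the NF-kB motif matched once on each strand, at positions -71 to -62 and -70 to -61, counted from the start. Cxcl10 held NF-kB matches at -159 to -150 and, as a pair that overlap, at -104 to -94, together with 1 AP-1 and 1 ISRE match. The Cxcl14 window held 1 ISRE match, at -172 to -163, and no match to the other motifs. Of 32851 promoter windows in the reference, 7.25% held the NF-kB motif, 6.75% the AP-1 motif and 2.98% the ISRE. Ccl20 held 1 NF-kB match and Cx3cl1 1 TATA match, a motif found in 12.4% of windows. A match describes letters only, and factor binding was not measured.

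Between 15509 and 16459 probes were detected per array (detection p under 0.05, the chance of such a signal among negative controls), and the median intensity was 153.4 to 168.1. Arrays with the same replicate number resembled each other across treatments: -GFs replicate 1 correlated with BMP4 replicate 1 at 0.99 and with -GFs replicate 2 at 0.97 over 13000 probes detected on all 6 arrays. The 12 stromal markers examined, such as Col1a1 and Vim, were all detected. Of 9 leukocyte markers on the array, 6 were detected on no array, among them PTPRC, CD68, ITGAM and CD3E, and of 6 endothelial markers CDH5, PECAM1, TIE1 and ICAM2 were detected on none. CD14 and LYZ2 were detected on all 6 arrays and CSF1R on 5, and of the endothelial markers TEK on 6 and KDR on 4. The summed raw intensity of the leukocyte list was 3709.9 and 3148.6 in -GFs, 2948.1 and 3041.6 in FGF2, and 2959.2 and 3203.3 in BMP4 (replicates 1 and 2). CD14 alone gave 2300.8 of it in -GFs replicate 1. The sum of the endothelial list lay between 1021.2 and 1311.3. Both sums include the background of undetected probes and are not a measure of cell content.

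The members differed in whether they were seen at all. CCL2, CCL7, CCL5, CXCL1, CXCL16 and CX3CL1 were detected on all 6 arrays, and CXCL14 was detected on both FGF2 arrays and 1 other. CXCL10 and CCL20 had no probe detected on both arrays of a group. Thus 7 genes with 10 probes entered the comparison, in which 11872 genes were tested. CXCL14 entered only through the FGF2 arrays, so that its calls against -GFs and BMP4 are not read as a test. A gene was called modulated at an absolute log2 fold change over 1 and a limma adjusted p under 0.1.

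FGF2 went with higher signals of CCL2, CCL7 and CXCL14, whereas the other 4 measured members lay near their -GFs level. These 3 were called higher and none lower, in a comparison that called 3.53% of all genes tested and 2.28% as higher. In each of the 3, both FGF2 arrays lay above both -GFs arrays, as in 24.6% of all genes. As the members were chosen on these signals, the calls and shares are given for scale and nothing is read from them. The median log2 fold change of the 7 genes was 0.17, against -0.02 over all genes tested.

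CCL2 (MCP-1), the main ligand of CCR2 on inflammatory monocytes, read 462 and 758.3 in -GFs, 2249.8 and 3248.8 in FGF2, and 519.7 and 642 in BMP4 (raw intensity, replicates 1 and 2). Both FGF2 arrays lay above the other 4, and the BMP4 arrays fell between the -GFs arrays. On the normalised log2 scale its level was 9.15 ± 0.71 in -GFs, 11.41 ± 0.41 in FGF2 and 9.21 ± 0.15 in BMP4 (SD, n = 2). The log2 fold change with FGF2 was 2.26 ± 0.35 (SE), or 4.80-fold, with 2.48 in the pair of replicate 1 and 2.05 in that of replicate 2. As bulk RNA was measured, a change in the share of expressing cells and a change in RNA per cell cannot be told apart in this or any later comparison.

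CCL7 (MCP-3), which also signals through CCR2 and whose gene lies next to Ccl2 on chromosome 11, was measured by 2 probes. The brighter one read 4002.8 and 4235.2 in -GFs, 8530.6 and 12364.9 in FGF2, and 2925.4 and 3504.6 in BMP4, and the other one 3027.4 and 3561.9, 6561.1 and 12012.7, and 2806.3 and 3421. On each probe the FGF2 arrays were the brightest, with replicate 2 above replicate 1. The probes gave log2 fold changes of 1.44 ± 0.22 and 1.57 ± 0.30 (SE) with FGF2, or 2.71-fold and 2.97-fold. Under BMP4 they gave -0.25 ± 0.22 and 0.04 ± 0.30, on different sides of 0. Ccl11 (eotaxin), the next gene along the chromosome, differed by -0.14 ± 0.54 with FGF2 (adjusted p = 0.905).

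CXCL14 (BRAK) started from a signal at the edge of detection. Its brighter probe read 196.1 and 196.6 in -GFs, 649.8 and 1076.4 in FGF2, and 161.4 and 182.6 in BMP4, and it was detected on 1 of 2 -GFs arrays, on both FGF2 arrays and on no BMP4 array. The FGF2 arrays stood well above the rest, which lay close together. The log2 fold change with FGF2 was 2.12 ± 0.26 (SE), or 4.36-fold, with 1.80 and 2.45 in the pairs of replicates 1 and 2. Against BMP4, where it was not detected, FGF2 was at least 4.42-fold higher, a bound that puts an undetected signal at the dimmest detected level of its array.

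The second CXCL14 probe read 160 and 150.9 in -GFs, 546 and 613.7 in FGF2, and 138 and 180.1 in BMP4. It was detected in FGF2 alone among the groups, where it was at least 3.08-fold higher than in -GFs and at least 3.09-fold higher than in BMP4. With background correction from the detection p-values (neqc) the log2 fold change of CXCL14 with FGF2 was 3.44. With the replicate number as a block, the standard errors of the FGF2 fits against -GFs narrowed. On the brightest probes they were 0.17 for CCL2, 0.15 for CCL7 and 0.17 for CXCL14.

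**Figure D1:**
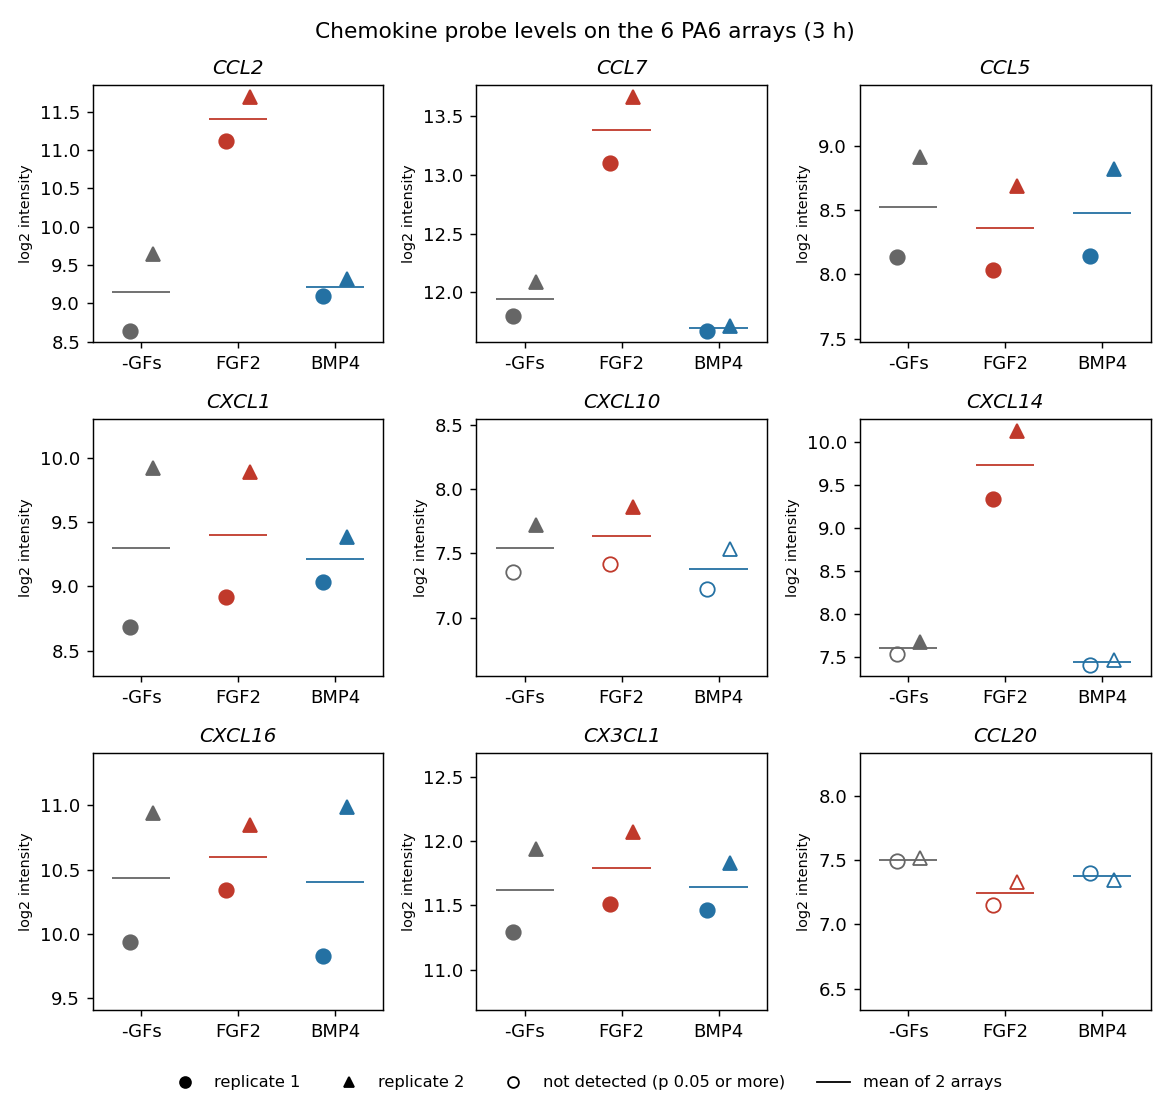
Normalised log2 intensity of the brightest probe of each of the 9 chemokine genes on the 6 arrays, with groups on the horizontal axis, circles for replicate 1, triangles for replicate 2, open symbols where the probe was not detected, and a line at the mean of 2 arrays; the vertical ranges differ between panels. The FGF2 arrays stand above all others for CCL2, CCL7 and CXCL14, and the triangles stand above the circles in each group for the 7 tested genes.

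The calls of CCL2 and CCL7 rested partly on 1 array. Without FGF2 replicate 2 the log2 fold changes were 1.97 for CCL2, 1.15 for CCL7 and 1.73 for CXCL14. CCL2 and CCL7 were then not called, but with 1 FGF2 array left fewer of all genes were called too. CXCL14 entered only through the FGF2 arrays, and its call is not read as the firmer one. Leaving out any other array kept the 3 calls against -GFs.

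CCL5 (RANTES), which attracts T cells and monocytes, read 317.3 and 453.4 in -GFs, 261.4 and 389.1 in FGF2, and 271.9 and 454.6 in BMP4. CXCL1 (KC), the neutrophil attractant, read 473.6 and 908.5, 488.8 and 907.6, and 497.9 and 671.9 in the same order. For both, the groups overlapped, and in each group replicate 2 was the higher array. With FGF2, the log2 fold change was -0.17 ± 0.36 (95% interval -1.02 to 0.68) for CCL5 and 0.10 ± 0.46 (-0.98 to 1.19) for CXCL1 (SE).

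Of the transmembrane chemokines, CXCL16, the ligand of CXCR6, read 1123 and 1873.4 in -GFs, 1308.6 and 1765.5 in FGF2, and 852.5 and 2088.6 in BMP4 on its brighter probe. CX3CL1 (fractalkine), the ligand of CX3CR1, read 2857.1 and 3791.8, 2892.6 and 4231.5, and 2541.2 and 3773. Again the groups overlapped and the arrays sorted by replicate. The log2 fold changes with FGF2 were 0.16 ± 0.46 (95% interval -0.93 to 1.25) and 0.17 ± 0.28 (-0.50 to 0.85) (SE). With the replicate number as a block (2 residual degrees of freedom), the intervals of these 4 genes narrowed and lay within -0.46 and 0.49. As the members were chosen on these signals, the intervals are a description and exclude no size of change. A dim second CXCL16 probe, between 185 and 253.8 on the 6 arrays, gave 0.27 ± 0.17 (SE).

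CXCL10 (IP-10) had 1 probe detected on no array, between 112.4 and 165. Its other probe read 170.8 and 203.4 in -GFs, 170.5 and 227.6 in FGF2, and 142.3 and 192.1 in BMP4 and was detected only on -GFs replicate 2 and FGF2 replicate 2. CCL20 was detected on no array, with 141.6 to 189.4 on the brighter probe and 115 to 135.2 on the other. A transcript at these signals was not detectable by these probes, which does not show that it is absent.

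BMP4 left the measured chemokines near their -GFs level. None of the 7 was called, in a comparison that called 0.00842% of all genes (1 gene by limma, with 215 genes or 1.81% at an unadjusted p under 0.05). Log2 fold changes ran from -0.25 for CCL7 to 0.06 for CCL2, with a median of -0.05 against 0.00 over all genes. Their 95% intervals reached from -1.18 to 1.06, both for genes whose arrays differed most between replicates (CXCL1 and CXCL16). With the replicate block they lay within -0.57 and 0.41. CCL7 and CXCL14 were lower than -GFs in both pairs, by 0.13 and 0.38 for CCL7 on the brighter probe and by 0.13 and 0.21 for CXCL14, but on their second probes the fits gave 0.04 and 0.03.

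Set directly against BMP4, FGF2 was higher by 2.20 ± 0.35 for CCL2, 1.69 ± 0.22 for CCL7 and 2.29 ± 0.26 for CXCL14 on the log2 scale (SE). The same 3 members were called, in a comparison that called 3.07% of genes and 2.02% as higher. As the members were chosen on these signals, this too is given for scale only. Without FGF2 replicate 2 CCL2 and CCL7 were not called, and the value of CXCL14 was 1.90. Without FGF2 replicate 1 or BMP4 replicate 1 CCL2 (2.49 and 2.09) was not called. CXCL14 entered only through the FGF2 arrays, so that its call here is not read as a test. The comparisons share their FGF2 or -GFs arrays and are not independent of each other. With 2 arrays against 2, an exact permutation test cannot go below p = 0.333, so that limma's pooled estimate of the spread decides each call.

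**Figure D2:**
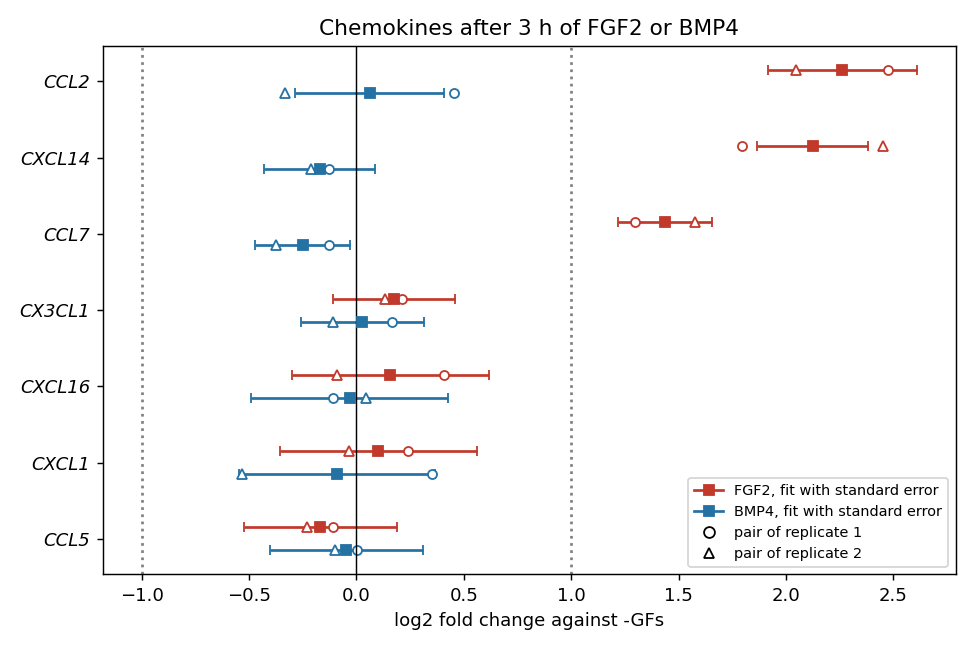
Log2 fold change against -GFs of the 7 tested chemokines (horizontal axis) under FGF2 (red) and BMP4 (blue): squares and bars give the limma fit and its standard error, open symbols the matched pairs of replicates 1 and 2, and dotted lines the threshold of 1 in either direction. CCL2, CXCL14 and CCL7 have FGF2 fits (red squares) of 1.44 to 2.26, while all other squares lie between -0.25 and 0.17.

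The replicates were then compared, which is another contrast than that between treatments but rests on the same 6 arrays. As the members were chosen with results of these arrays known, the adjusted p-values between replicates are not independent evidence. In a model with group and replicate, all 7 measured chemokines were higher in replicate 2 than in replicate 1 at an adjusted p under 0.1, where 12.8% of all genes were higher at that level and 16% were lower. None reached a log2 difference of 1, a size at which 1.03% of genes were called. All 7 were higher in each of the 3 groups, as were 28.1% of all genes. For CXCL14 this includes signals that were not detected, on both BMP4 arrays and on -GFs replicate 1. The median was 0.60 against 0.02 over all genes tested. Under scaling to the median and under neqc, 5 of the 7 passed, and CCL7 failed in 8 of 16 alternatives and CXCL14 in 9 of 15. In 4 of the 7, CCL5, CXCL1, CXCL16 and CX3CL1, each array of replicate 2 lay above each array of replicate 1, as in 9.76% of all genes.

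The largest of these differences was that of CXCL16, 0.89 ± 0.13 (SE) or 1.86-fold (limma adjusted p = 8.91e-05), with 1.01 in -GFs, 0.51 in FGF2 and 1.16 in BMP4. CXCL1 was higher by 0.85 ± 0.14 (adjusted p = 0.000312), with 1.24, 0.96 and 0.35 in the same order, and CCL5 by 0.70 ± 0.11 (adjusted p = 0.000225), with 0.78, 0.65 and 0.67. CX3CL1 was higher by 0.52 ± 0.11 (adjusted p = 0.00316), with 0.64, 0.56 and 0.37. For these 4 genes the fitted difference between replicates exceeded in size that with FGF2 or BMP4. The dim second CXCL16 probe showed 0.18 ± 0.12 (adjusted p = 0.292), which did not pass.

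CCL2 was higher in replicate 2 by 0.60 ± 0.13 (adjusted p = 0.00362), and its replicate sets overlapped, as both FGF2 arrays lay above all other arrays. On the second probes, CXCL14 differed by 0.18 ± 0.12 (limma adjusted p = 0.306) and CCL7 by 0.47 ± 0.14 (adjusted p = 0.018). On the brighter probes, the differences of CXCL14 (0.33 ± 0.14, adjusted p = 0.0956) and CCL7 (0.30 ± 0.12, adjusted p = 0.0939) came close to the threshold. Without the FGF2 pair they were 0.09 (adjusted p = 0.672) and 0.16 (adjusted p = 0.429) and no longer passed. Of the 3 tested genes of the leukocyte list, 0 passed the adjusted p between replicates in either direction (limma, with 0 at an unadjusted p under 0.05). What separated the replicates was not tested, and culture, RNA and array cannot be told apart.

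**Figure D3:**
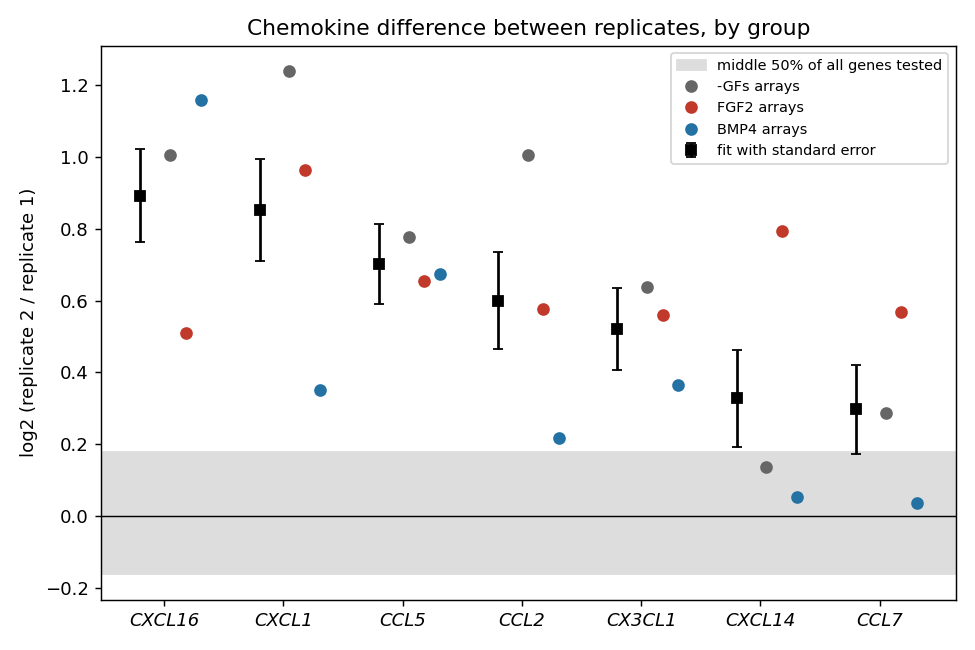
Log2 ratio of replicate 2 to replicate 1 (vertical axis) for the 7 tested chemokines: black squares and bars give the limma fit and its standard error, coloured circles the -GFs, FGF2 and BMP4 arrays, and the grey band the middle 50% of all genes tested. All circles lie above 0, and those of CXCL16, CXCL1, CCL5 and CX3CL1 lie above the band in each group.

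The rest of the chemokine system was examined next, followed by genes of related pathways. These gene lists were chosen with earlier results of these data known, so that their counts beside all genes are a description. Of 26 other ligands on the array, 15 were detected on no array, among them CCL3, CCL4, CXCL2, CXCL3, CXCL9 and CXCL11, and 7 were tested. None was called with FGF2 or BMP4 (limma, with 1 and 0 at an unadjusted p under 0.05). CCL27, the skin chemokine that attracts CCR10-bearing T cells, was lower with FGF2 by a log2 value of -0.79 ± 0.21 (adjusted p = 0.078), the 1 gene of the list past the adjusted p alone, as were 5.77% of all genes on the lower side. CXCL12 read 38062.9 and 23492.8 in -GFs, 22872.2 and 17476.2 in FGF2 and 31197 and 27598.4 in BMP4, with -0.42 ± 0.26 under FGF2 (adjusted p = 0.386, and 0.0283 with the replicate block).

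The other ligands did not share a direction between replicates. At the adjusted p, 2 were higher and 3 lower in replicate 2, against 12.8% and 16% of all genes, and the median over the 7 was -0.27. CCL9 (MIP-1 gamma), whose gene is next to Ccl5, was lower by a log2 value of -1.26 ± 0.12 (adjusted p = 1.81e-06), whereas CCL11 was higher by 1.09 ± 0.12 (adjusted p = 6.06e-06). CCL9 read 24329.9 and 9420.7 in -GFs, 22971.4 and 7799.3 in FGF2, and 17959.9 and 10270.2 in BMP4. CCL11 is named here because its values were seen to stand out.

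Few receptors were detected. Of 21 on the array, 17 were detected on no array, and 1, the atypical receptor CCRL1 (ACKR4), which scavenges CC chemokines, was tested. It differed by -0.39 ± 0.19 with FGF2 (adjusted p = 0.276, and 0.0664 with the replicate block). Of 8 proteases that cleave or shed chemokines, 5 were tested and none was called with FGF2 (limma, with 2 at an unadjusted p under 0.05). ADAM17 differed by 0.13 ± 0.26 with FGF2 (adjusted p = 0.803), MMP2 by -0.43 ± 0.17 (adjusted p = 0.19, and 0.0365 with the replicate block) and MMP14 by 0.11 ± 0.17 (adjusted p = 0.749). MMP3 alone passed the adjusted p as higher, as did 6.03% of all genes. It was detected on the 2 FGF2 arrays only, where it was at least 1.12-fold higher than in -GFs. As it passed the detection filter only through those arrays, its adjusted p is not read as a test.

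Of 30 genes of NF-kB factors, feedback inhibitors and classical targets, 21 were tested. With FGF2, 3 were called higher, as were 2.28% of all genes. IER3, an immediate early gene, differed by 2.52 ± 0.24 (limma adjusted p = 0.00667) and TNFAIP2 by 1.11 ± 0.19 (adjusted p = 0.0235). LIF, a cytokine of the interleukin 6 family, was at least 2.31-fold higher than in -GFs and was detected on the 2 FGF2 arrays only. It passed the detection filter only through those arrays, so that its call is not read as a test. No gene was called lower, and the median was 0.29 against -0.02 over all genes tested. CSF3 (0.29) and ICAM1 (0.19), like LIF, entered only through the FGF2 arrays and had positive values. As these genes count in the median, it is not read as a shift of the list. With the replicate block, 10 passed the adjusted p as higher, LIF among them, and 2 as lower, where 18.1% and 19.6% of all genes did so. NFKBIA, the feedback inhibitor I-kappa-B-alpha, differed by -0.08 ± 0.26 (adjusted p = 0.88), TNFAIP3 by -0.16 ± 0.32 (adjusted p = 0.812) and SOD2 by 0.61 ± 0.26 (adjusted p = 0.212, and 0.00258 with the replicate block). Between replicates, 12 of the 21 were higher in replicate 2 and 1, NFKBIZ, was lower at the adjusted p, against 12.8% and 16% of all genes, with RELB at 0.87 ± 0.12 (adjusted p = 6.45e-05).

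Interferon-stimulated genes lay on the lower side with FGF2. Of 18 tested, none had a positive fold change, against 47.5% of all genes, and the median was -0.49 against -0.02. The list was chosen with earlier results of these data known, so that its counts describe these arrays and test nothing. At the adjusted p, 2 passed as lower, as did 5.77% of all genes. TAP1, the peptide transporter of antigen presentation, was called lower (-1.20 ± 0.32, limma adjusted p = 0.0787), as were 1.25% of all genes. With the replicate block 12 passed as lower, as did 19.6% of all genes. In that fit, against 1.44% of all genes, 3 were called lower. These were TAP1, USP18 (-1.15, adjusted p = 0.000117 with the block) and PSMB9 (-1.06, adjusted p = 1.44e-05 with the block). Between replicates 13 of the 18 were higher in replicate 2 at the adjusted p, against 12.8% of all genes, with PSMB8 at 1.54 ± 0.12 (adjusted p = 1.54e-07) and BST2 at 1.20 ± 0.13 (adjusted p = 6.14e-06). None of the tested genes of the NF-kB and interferon lists was called with BMP4 (limma, with 1, CEBPB, at an unadjusted p under 0.05, and a log2 fold change of -0.61 ± 0.19).

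**Figure D4:**
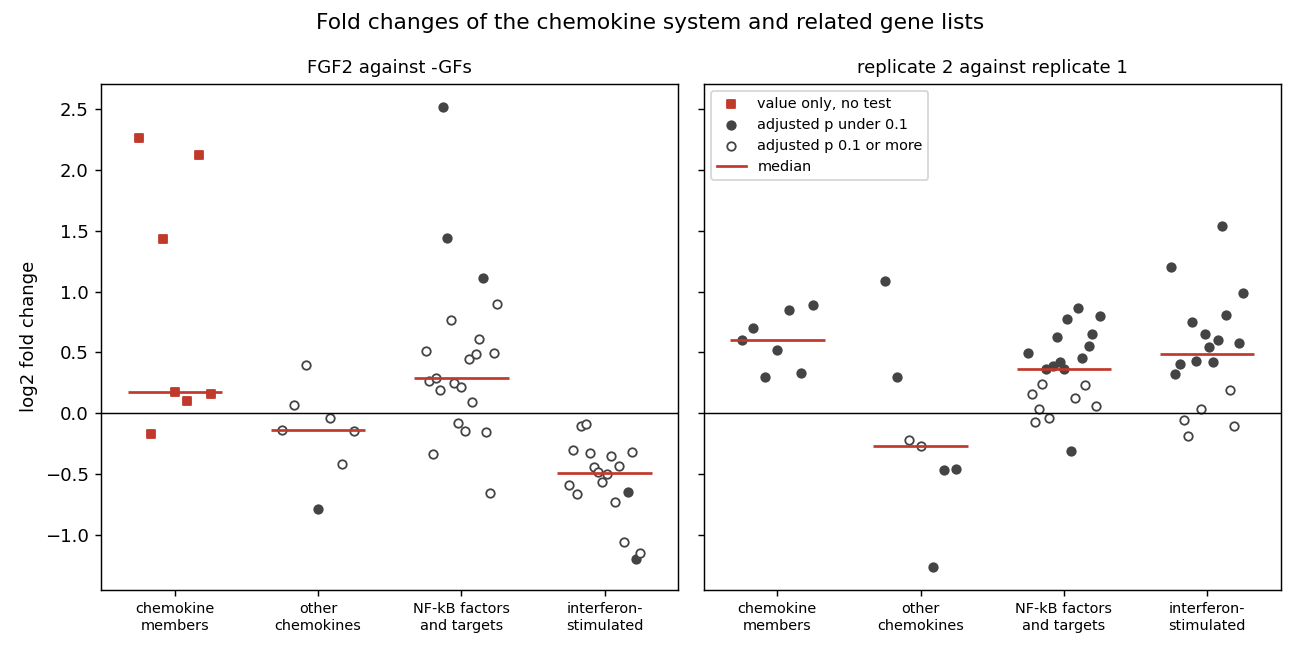
Log2 fold change (vertical axis) of the tested genes of the chemokine members, other chemokine ligands, NF-kB factors and targets, and interferon-stimulated genes with FGF2 (left) and between replicates (right): filled circles passed a limma adjusted p under 0.1, open circles did not, red squares are given without a test, and red lines are medians. With FGF2 the medians are 0.17, -0.14, 0.29 and -0.49, and between replicates 0.60, -0.27, 0.36 and 0.49. LIF, CSF3 and ICAM1 entered only through the FGF2 arrays, and the filled circle of LIF on the left is not read as a test.

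For the 3 members detected on all 6 arrays that varied most, the genes with the most similar pattern were sought among 3226 genes detected on all 6 arrays whose level varied with a standard deviation of at least 0.3. CCL2 was most like ZNRF2, a ubiquitin ligase (Pearson's r = 0.998), SIPA1L3 (0.996) and TTPAL (0.995). CCL7 was most like FOSL2, an AP-1 subunit (0.999), SYNPO (0.997) and CD44, the hyaluronan receptor (0.997). CXCL16 was most like LOC666053 (0.996), ALDH18A1 (0.992) and DNMT3L (0.989). The genes found for CCL7 differed by log2 values of 0.87 to 1.31 with FGF2, and those found for CXCL16 by 0.03 to 0.14 with FGF2 and by 0.53 to 0.62 between replicates. These values describe 6 arrays in 3 groups, which all genes share, and were chosen as the highest of many.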

How the data were processed

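Total RNA of 6 PA6 cultures was labelled and hybridised to 1-colour bead arrays. The deposited values are linear probe intensities, each with its detection p-value, made by the authors with Illumina software (GenomeStudio 2011.01 per the labels) and not normalised between arrays. The deposited detection p-value was used to mark probes as detected. The 9 columns without a heading and the 6 leftover lines of the table were not used.

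Intensities were normalised over the 6 arrays with a re-implementation of the cubic spline method (452 quantiles) and taken to log2. A probe was kept where any group had it detected at p under 0.05 on both arrays, and a gene was represented by its brightest probe. Groups were compared with limma 3.58.1 (R 4.3.3) on all 6 arrays without a block (3 residual degrees of freedom), and p-values were adjusted by Benjamini-Hochberg over 11872 genes. The replicate difference came from a model with group and replicate. Labels pair the replicates, and deviations of same-numbered arrays correlated at 0.58 to 0.74. Second probes were fitted among all probes kept. The steps were tested on simulated data. Intensity over background and the number of arrays limit the precision.

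The members and gene lists were chosen with earlier results of these data known. Named genes were all members, list genes called with a growth factor, up to 3 others per list with the highest level, markers, and the 3 genes most similar in pattern, with a standard deviation of at least 0.3. Other genes were named after their values were seen. Alternatives covered normalisation, detection filter, choice of probe, replicate block, limma options, thresholds, the methods' t-test and leaving out each array. That t-test is the unpaired Student's test of the paper's general statistics, while the paper used limma for the arrays. Promoters are those of RefSeq, GRCm38.p6. Probe sequences were not used here.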

Additional observations from a re-analysis of the deposited data

How the results depend on the processing

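No result changed sign past its threshold. The 3 chemokine calls with FGF2 held under quantile normalisation, scaling to the median, neqc, the looser filters, the mean of probes, an adjusted p under 0.05 and the replicate block, which changed no member's call, while a filter for detection on all 6 arrays removed CXCL14. As the members were chosen on these signals, this describes the processing and is not evidence for the calls. Leaving out 1 array gave 1 to 3 members called with FGF2 against -GFs, 1 to 3 against BMP4, 0 to 1 between replicates, and 5 to 7 past the adjusted p between replicates. The methods' t-test after Benjamini-Hochberg called 0 members in each comparison and passed 0 of the 7 between replicates, against 4 at an unadjusted p under 0.05. For the replicates this t-test had no term for the group, so that differences between treatments added to its spread. Between replicates neqc called 2 members, and 7 passed without a threshold on the fold.

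Over all genes, FGF2 called 419 (271 higher, 148 lower), BMP4 1, FGF2 against BMP4 364, and the replicates 122. Scaling to the median alone gave 208 higher and 209 lower with FGF2. In that order, neqc gave 794 for FGF2, 640 for FGF2 against BMP4 and 435 for the replicates, no threshold on the fold gave 1401, 1076 and 3419, and the methods' t-test after Benjamini-Hochberg 0, 0 and 3. For BMP4 detection on at least 1 array, no detection filter, and limma's trend and robust settings gave 2, the replicate block 10, and the methods' t-test 8 unadjusted and 0 adjusted. Leaving out 1 array gave 106 to 444 for FGF2, 0 to 2 for BMP4, 93 to 387 for FGF2 against BMP4 and 97 to 218 for the replicates. Why these counts moved was not tested. Slide as a block was not run, as the headers name no slide.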
